A study of Mus musculus with 8 samples.

Results

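The thick ascending limb of the loop of Henle was followed through 8 of its genes in mouse kidney with and without a conditional deletion of Kdm1a. They are Umod, Slc12a1, Kcnj1, Bsnd, Egf, Ptger3, Casr and Enox1, taken by symbol from a fixed list, and all 8 were found among the 49315 gene IDs of the deposited count table. Messenger RNA was sequenced from frozen kidney of 4 controls and 4 conditional knockouts. The labels give neither age, sex nor strain, nor the Cre driver or the alleles of either group. Nor do they say whether the kidneys of a group came from separate animals, so p values measure only the spread between these libraries. Kdm1a encodes LSD1, a demethylase of histone H3.

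The thick ascending limb takes up salt without water and so dilutes the urine and builds the salt gradient of the medulla. Sodium, potassium and chloride enter its cells together through the cotransporter NKCC2 (Slc12a1). Potassium returns to the lumen through the channel ROMK (Kcnj1), and chloride leaves on the blood side through channels that need the subunit barttin (Bsnd). Loss of any of these in humans causes Bartter syndrome. The same cells secrete uromodulin (Umod), the most abundant protein of normal urine, and the prepro form of epidermal growth factor (Egf) is made there and in the distal convoluted tubule. The calcium-sensing receptor (Casr) and the prostaglandin receptor EP3 (Ptger3) restrain salt uptake in this segment. Enox1 encodes a cell-surface oxidase of NADH. Its levels, given below, did not follow those of the other members.

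Libraries held between 19524945 and 28544511 counts. Levels are given in CPM, counts divided by the library total and scaled by trimmed mean of M values, and 1 count stood for between 0.0350 and 0.0512 CPM before that scaling. All 8 members passed the filter on low counts. Kdm1a itself was at 110, 112, 120 and 110 CPM in control replicates 1 to 4 and at 94.0, 95.3, 90.9 and 94.2 CPM in knockout replicates 1 to 4. Every knockout library lay below every control (log2 fold change −0.27, SE 0.05, edgeR adjusted p 0.0194), though transcripts of the gene were still abundant. Its adjusted p was above 0.05 in 5 of the 8 refits that lacked 1 library each, and highest (0.0765) without knockout replicate 4. Control replicate 2 and knockout replicate 3 stood apart from the rest of their groups on the first principal component, at 9.56 and 9.71. The other controls lay between −78.7 and −52.4 on it and the other knockouts between 48.3 and 68.4. Kdm1a in these 2 libraries was at 112 and 90.9 CPM, as listed above. Whether each library carries the right label was not tested. By chi-square per degree of freedom over genes, lower when more alike, control replicate 2 stood at 17.8 to 22.8 from the knockouts. From the other controls it stood at 35.1 to 61.8. Knockout replicate 3 stood at 18.4 from control replicate 2, the library nearest to it. It stood at 22.3 to 31.8 from the other knockouts and at 39.0 to 63.3 from control replicates 1, 3 and 4. Transcripts of 4 Y-linked genes summed to at least 229 CPM in control replicates 1, 3 and 4 and knockout replicates 2 and 3, and to at most 2.63 CPM in the other 3 libraries, so both kinds occur in both genotypes.

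Umod, Kcnj1, Bsnd and Ptger3 fell in the knockout. They are 4 of the 8 members, where 8.27% of all 18485 tested genes were called lower and 6.61% higher (edgeR, adjusted p under 0.05). Slc12a1, Casr and Egf had negative log2 fold changes that were not called, and Enox1 was the 1 member with a positive value, of 0.03. All 4 knockout libraries lay below all 4 controls for 2 members, Umod and Egf, where 9.58% of tested genes showed this. The median log2 fold change of the members was −2.43, beside 0.00 over all tested genes. In bulk tissue, fewer cells of a type and less RNA per cell cannot be told apart. The calls depended on single libraries. In 6 of the 8 refits on 7 libraries no member was called by edgeR, although 6 or 7 members had an unadjusted p under 0.05 in each of them; of all tested genes those 6 refits called between 0.230% and 1.83% lower. Without control replicate 2 edgeR called 6 members lower and 19.0% of all tested genes, and without knockout replicate 3 it called 6 members and 9.30% of genes. With both of these libraries left out 7 members were called, every one but Enox1, and 22.2% of genes. DESeq2 on all libraries called 6 members and 13.6% of genes.

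**Figure D1:**
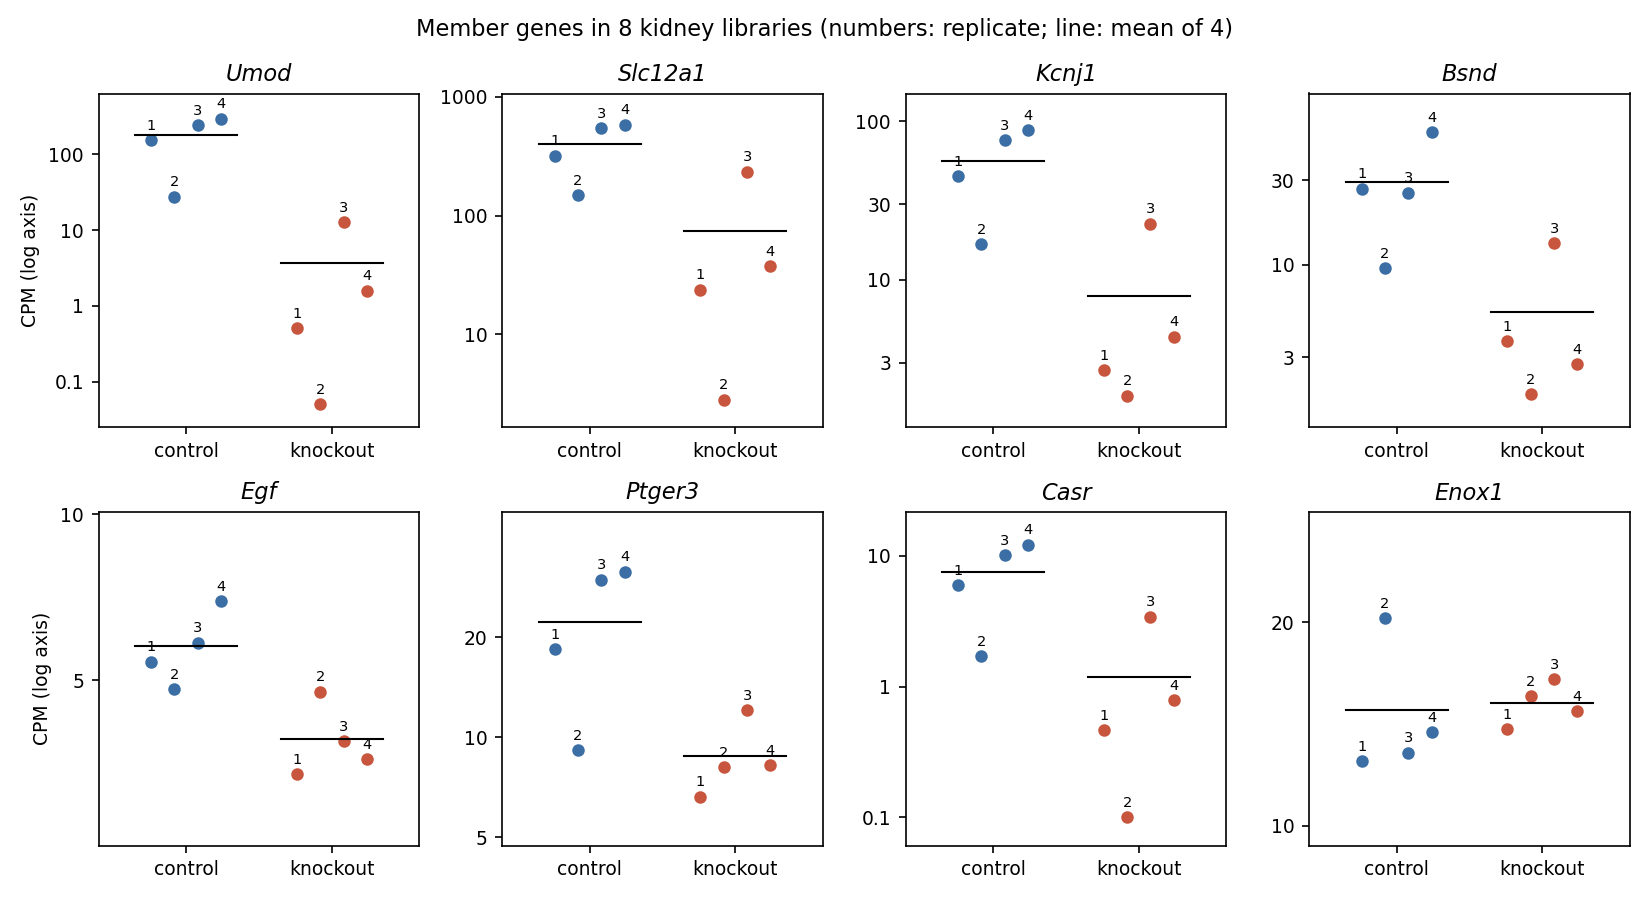
Level of each member in every library, in CPM on a log axis. Points are libraries numbered by replicate, controls on the left in blue and knockouts on the right in red, and the line is the mean of 4. Umod in the knockouts lies at 12.8 CPM or below, while knockout replicate 3 lies above control replicate 2 for Slc12a1, Kcnj1, Bsnd, Ptger3 and Casr.

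Umod (ENSMUSG00000030963, chromosome 7, 119462711 to 119479282, minus strand, GRCm38) had the largest change of the members. It stood at 153, 27.6, 241 and 293 CPM in control replicates 1 to 4 and at 0.507, 0.0502, 12.8 and 1.58 CPM in knockout replicates 1 to 4. The knockout values rest on 12, 1, 369 and 44 counts. No library of one genotype reached into the range of the other, yet each genotype spread over more than an order of magnitude, with control replicate 2 the lowest control and knockout replicate 3 the highest knockout. The mean went from 179 ± 116 to 3.73 ± 6.06 CPM (SD, n = 4 each), a log2 fold change of −5.52 (SE 1.16, 95% interval −8.14 to −2.90, adjusted p 0.0219). Its adjusted p ran up to 0.0787, without knockout replicate 4, and was above 0.05 in all 6 refits in which no member was called.

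Slc12a1 (ENSMUSG00000027202, chromosome 2, 125152505 to 125230002, plus strand), the apical cotransporter, was at 318, 149, 542 and 582 CPM in the controls. In knockout replicates 1 to 4 it was at 23.8, 2.81, 233 and 37.5 CPM. Knockout replicates 1, 2 and 4 lay far below every control, and replicate 3 lay above control replicate 2, so the groups overlapped. The means were 398 ± 203 and 74.3 ± 107 CPM (SD, n = 4 each). The log2 fold change of −2.42 (SE 1.03, 95% interval −4.74 to −0.09) was not called, with an adjusted p of 0.131. Without knockout replicate 3 it was called, at an adjusted p of 0.0204.

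The sequence upstream of these 2 genes is shown because they are the most abundant members per base of transcript and differed in how far they moved. Both come from the RefSeq promoter table (build GRCm38.p6, with entries for 7 of the 8 members), are written 5′ to 3′ on the gene's own strand and end just before the outermost annotated transcript start. Neither held a match to the motifs searched, so no base is in capitals.
Umod, chr7:119479283-119479512, minus strand: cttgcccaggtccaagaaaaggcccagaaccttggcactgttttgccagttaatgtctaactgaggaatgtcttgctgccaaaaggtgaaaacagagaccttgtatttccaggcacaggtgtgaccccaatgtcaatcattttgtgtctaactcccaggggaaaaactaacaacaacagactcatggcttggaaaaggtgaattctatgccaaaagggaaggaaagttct
Slc12a1, chr2:125152350-125152504, plus strand: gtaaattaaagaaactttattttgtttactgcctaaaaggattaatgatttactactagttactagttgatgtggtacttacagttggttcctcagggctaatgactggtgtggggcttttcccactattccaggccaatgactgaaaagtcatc

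The search took in 2 motifs on both strands, which do not overlap each other. The site of oestrogen-related receptors, AAGGTCA, and the TATA box, TATAAA, were absent from the 230 bases of Umod and from the 155 bases of Slc12a1. Among the 32851 promoters of the table, AAGGTCA occurs in 3.82% over the first 230 bases of the entry and in 2.60% over the first 155. TATAAA occurs there in 11.8% and 7.47%. Entries begin 250 bases before their start, so these stretches end short of it, in other promoters and in the 2 shown. Bases of Umod and Slc12a1 between the stretch and the start of the entry were not searched. The lack of a match says only that these letters are not in these windows.

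Umod and Slc12a1 are both genes of this segment, so their ratio within a library was compared between genotypes. In bulk tissue a change of the ratio within cells and a change in the mix of cells cannot be told apart. The ratios of the other members to Slc12a1 were not tested. On the log2 scale with a prior count of 2, Umod minus Slc12a1 was −1.06, −2.43, −1.17 and −0.99 in control replicates 1 to 4. It was −5.34, −4.44, −4.18 and −4.50 in knockout replicates 1 to 4. Every knockout lay below every control, including knockout replicate 3, whose Slc12a1 was within the control range. The difference of means was −3.20 (exact two-sided permutation test, p = 0.0286, which 8 libraries in equal groups cannot go below). Any ratio that does not overlap between genotypes gives this p. How many tested genes have such a ratio to Slc12a1 was not counted. The members were chosen with earlier results of these data known, so this p is no independent support. In knockout replicate 2 this value rests on 1 count of Umod and 56 of Slc12a1. With prior counts of 0.5 and 5 the difference was −3.48 and −2.89.

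Per kilobase of transcript (RPKM), the order of the members changed with it. In the controls Slc12a1 and Umod were the highest, at 69.0 ± 35.1 and 64.6 ± 42.0 RPKM. Kcnj1 followed at 16.9 ± 9.60, Bsnd at 10.7 ± 6.98, Enox1 at 4.25 ± 1.05, Ptger3 at 3.90 ± 1.83, Casr at 1.59 ± 0.982 and Egf at 0.511 ± 0.0799 RPKM (SD, n = 4 each). Neighbours in this order overlapped in their ranges of mean ± SD, except Casr and Egf. Such ranges ignore that the members were measured in the same libraries. Kcnj1 ranked above Bsnd, and Ptger3 above Casr, in all 4 controls. The order of the other neighbours, Casr and Egf among them, was not the same in every control. In the knockouts Slc12a1 was at 12.9 ± 18.5 RPKM, Enox1 at 4.34 ± 0.314, Kcnj1 at 2.36 ± 2.95, Bsnd at 1.95 ± 1.92, Ptger3 at 1.54 ± 0.406, Umod at 1.35 ± 2.19, Egf at 0.346 ± 0.0542 and Casr at 0.253 ± 0.321 RPKM, and here every pair of neighbours overlapped. Umod ranked 1 or 2 among the 8 members in every control library and 5 to 8 in every knockout library. Egf, an abundant transcript of the adult mouse kidney, was the lowest or next to lowest member in all 4 controls.

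**Figure D2:**
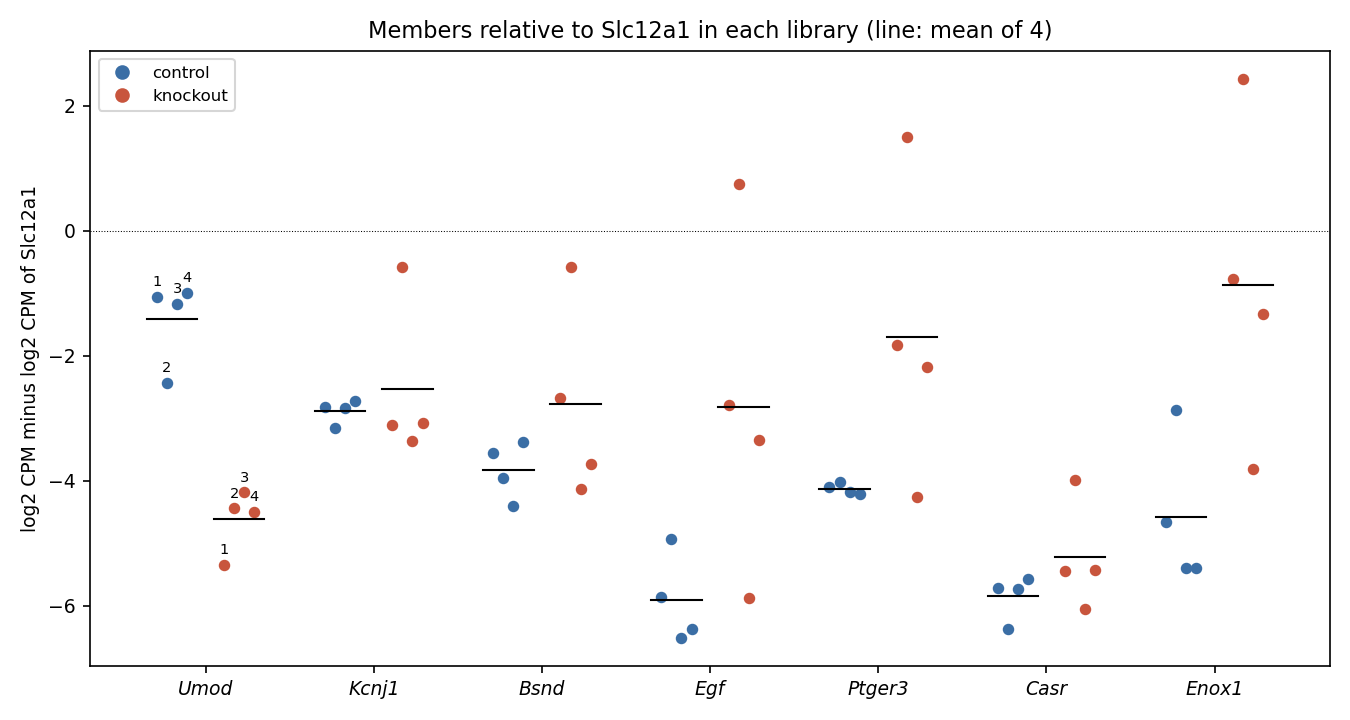
Log2 CPM of each other member minus log2 CPM of Slc12a1 in the same library, with controls in blue, knockouts in red and lines for the mean of 4. Points run from replicate 1 to 4 from left to right and are numbered for Umod. The ratio of Umod runs from −5.34 to −4.18 in knockouts and from −2.43 to −0.99 in controls. How many of all tested genes separate in this way was not counted. The ratios of knockout replicate 2 are the highest of their group for the other 6 members shown.

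Of the other salt transport members, Kcnj1 (ENSMUSG00000041248, chromosome 9, 32372493 to 32399197, plus strand), the ROMK channel, was at 45.1, 16.7, 75.6 and 88.0 CPM in the controls. It was at 2.70, 1.86, 22.5 and 4.39 CPM in the knockouts. Knockout replicate 3 was the only knockout inside the control range. The mean fell from 56.4 ± 32.0 to 7.87 ± 9.83 CPM (SD, n = 4 each; log2 fold change −2.82, SE 0.80, adjusted p 0.0465).

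Bsnd (ENSMUSG00000025418, chromosome 4, 106483456 to 106492283, minus strand), which encodes barttin, showed the same arrangement of libraries. Its controls were at 26.8, 9.55, 25.5 and 55.8 CPM and its knockouts at 3.67, 1.86, 13.2 and 2.73 CPM. Again only knockout replicate 3 overlapped the controls, above control replicate 2. The mean went from 29.4 ± 19.2 to 5.37 ± 5.28 CPM (SD, n = 4 each; log2 fold change −2.43, SE 0.68, adjusted p 0.0449). Both calls were lost in the 6 refits named above, with adjusted p values of up to 0.130 for Kcnj1 and 0.123 for Bsnd, each without knockout replicate 4. Relative to Slc12a1, Kcnj1 was at −2.88 ± 0.18 in controls and −2.53 ± 1.31 in knockouts on the log2 scale (SD, n = 4 each), values that overlap.

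Of the receptors, Ptger3 (ENSMUSG00000040016, chromosome 3, 157566892 to 157645888, plus strand) was at 18.4, 9.13, 29.7 and 31.4 CPM in the controls and at 6.63, 8.13, 12.0 and 8.24 CPM in the knockouts. The knockouts were close together, and control replicate 2 fell among them. The mean fell from 22.2 ± 10.4 to 8.76 ± 2.31 CPM (SD, n = 4 each; log2 fold change −1.34, SE 0.36, adjusted p 0.0400), a call lost in the same 6 refits (adjusted p up to 0.114, without control replicate 3). In control libraries Ptger3 kept a nearly fixed ratio to Slc12a1, of −4.13 ± 0.09 on the log2 scale. In the knockouts that ratio ran from −4.27 in replicate 3 to 1.51 in replicate 2.

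Casr (ENSMUSG00000051980, chromosome 16, 36493696 to 36562141, minus strand) was a rare transcript, with 146, 37, 250 and 268 counts in the controls and 11, 2, 99 and 22 in the knockouts. These correspond to 5.98, 1.72, 10.1 and 12.2 CPM against 0.465, 0.100, 3.43 and 0.791 CPM. Knockout replicate 3 lay above control replicate 2 and the other knockouts below every control. The log2 fold change of −2.60 (SE 0.86, 95% interval −4.53 to −0.66) was not called, with an adjusted p of 0.0695. DESeq2 called it (adjusted p 0.0403), as did the edgeR fits without control replicate 2 (0.0179) or knockout replicate 3 (0.0201).

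Egf (ENSMUSG00000028017, chromosome 3, 129677565 to 129755316, minus strand) was low and moved little beside the transporters. It was at 5.41, 4.82, 5.85 and 6.95 CPM in the controls and at 3.38, 4.77, 3.88 and 3.60 CPM in the knockouts, on 80 to 153 counts per library. The groups did not overlap, but control replicate 2 and knockout replicate 2 were nearly level. The means were 5.76 ± 0.901 and 3.91 ± 0.611 CPM (SD, n = 4 each), and the log2 fold change of −0.56 (SE 0.18, 95% interval −0.96 to −0.17) was not called (adjusted p 0.0595). DESeq2 called it (adjusted p 0.0185), and so did edgeR without control replicate 2 (0.0219).

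Enox1 (ENSMUSG00000022012, chromosome 14, 77156763 to 77721760, plus strand) was at 12.5, 20.3, 12.8 and 13.8 CPM in the controls and at 13.9, 15.6, 16.5 and 14.8 CPM in the knockouts. Control replicate 2 was the highest library, where the transport members had their lowest control value, and the other 3 controls lay below all 4 knockouts. The log2 fold change was 0.03 (SE 0.16, 95% interval −0.34 to 0.40, adjusted p 0.899). Its sign turned in 3 refits, with a value of −0.030 without control replicate 1, −0.032 without control replicate 3 and −0.0054 without control replicate 4. In knockout replicate 2 it had 310 counts where Slc12a1 had 56.

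The overlap between genotypes in 5 of the members came from 1 pair of libraries, control replicate 2 and knockout replicate 3, and this pair also differs in Y-linked transcripts. Splitting the libraries by these transcripts places the pair in different groups, so the overlap ends by construction, and only 1 control lacks them. For Slc12a1 the values with Y-linked transcripts were 318 to 582 CPM in 3 controls against 2.81 and 233 CPM in 2 knockouts. Without them, 149 CPM in 1 control stood against 23.8 and 37.5 CPM in 2 knockouts. With the mean Y-linked level as a covariate edgeR called 2 members, Umod (adjusted p 0.0178) and Kcnj1 (0.0428), while Bsnd (0.0566) and Ptger3 (0.0540) were not called. That fit called 5.62% of all tested genes lower.

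The members act with partners, listed as 10 further genes of salt transport in this segment, of which 9 were tested and 7 fell. For this list and those below, 8.27% of all tested genes were called lower and 6.61% higher. Which segment of the kidney the RNA of the listed genes came from was not tested. EdgeR called 0 higher, with 1 (Maged2) at an unadjusted p under 0.05 in that direction, and DESeq2 called 1 higher. Their median log2 fold change was −1.48.

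Kcnj16 and Kcnj10, subunits of the potassium channel on the blood side, changed by −1.48 (adjusted p 0.0275) and −1.41 (adjusted p 0.0307) on the log2 scale. Fxyd2, a subunit of the sodium pump, changed by −3.03 (adjusted p 0.0330). Cldn16, a claudin of the pores between cells for calcium and magnesium, changed by −2.44 (adjusted p 0.0350). Outside the rule for named genes, and chosen after their values were seen, the other 3 that fell were the claudins Cldn10 (−2.34) and Cldn19 (−1.22) and the pump subunit Atp1b1 (−1.73). The 2 tested genes not called were Slc9a2, a sodium-proton exchanger (−0.55, adjusted p 0.248), and Maged2, whose product stabilises the cotransporter before birth (0.23, adjusted p 0.0574). Maged2 was the partner with every knockout above every control, at 333 to 416 against 311 to 325 CPM. These counts rested on single libraries as the members' did, with 0 of the 9 called lower by edgeR in 6 refits and 7 or 8 in those without knockout replicate 3 or control replicate 2.

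**Figure D3:**
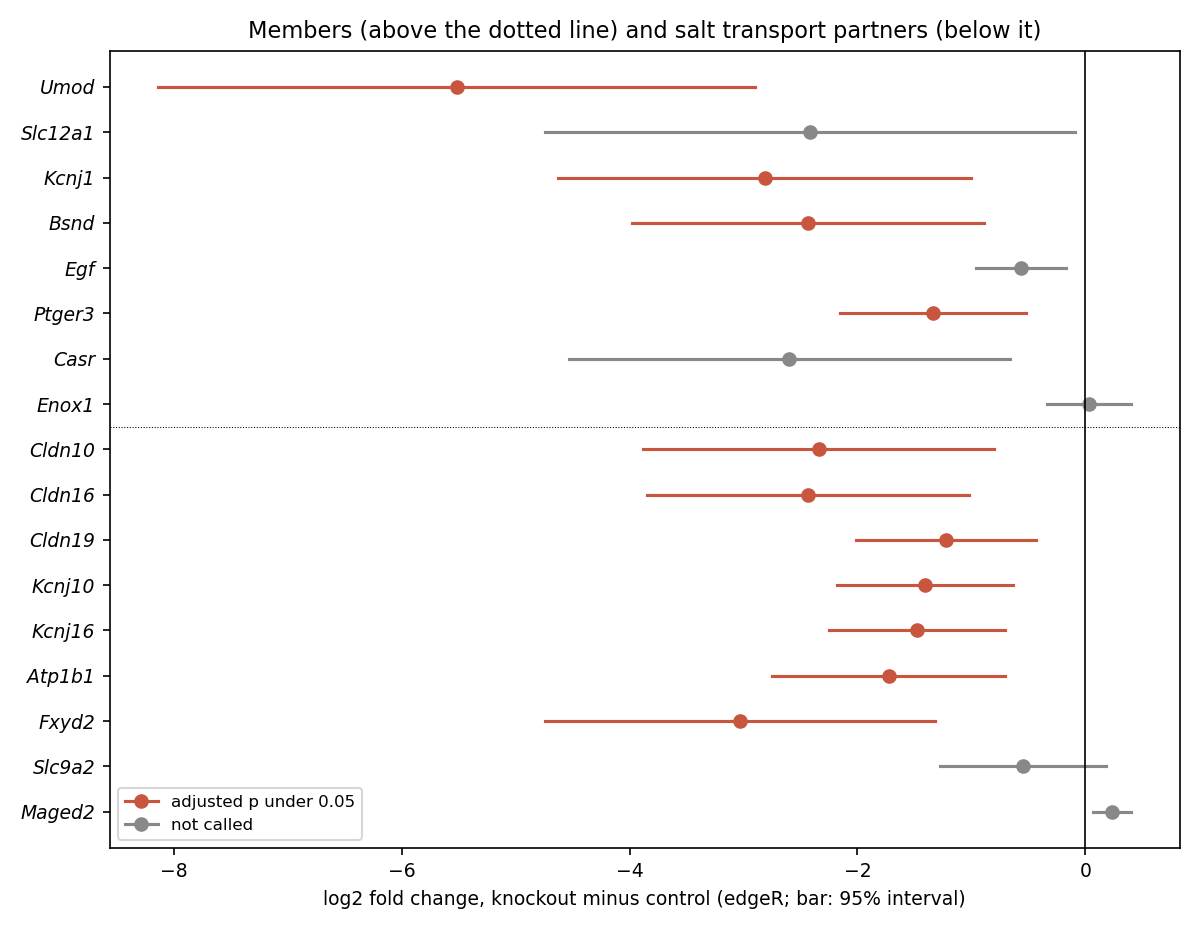
Log2 fold change, knockout minus control, of the 8 members (above the dotted line) and of the 9 tested salt transport partners (below it), from edgeR with 95% intervals. Red marks an adjusted p under 0.05 and grey genes that were not called. Umod lies farthest from 0, at −5.52, and Enox1 and Maged2 are the 2 genes with positive values, 0.03 and 0.23.

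Of 14 genes listed as regulators of the cotransporter, 12 were tested and 4 fell; their median log2 fold change was −0.10. Pth1r, the parathyroid hormone receptor, changed by −1.35 (adjusted p 0.0273). Klhl3, an adaptor for the degradation of WNK kinases, changed by −0.99 (adjusted p 0.0371). The kinase scaffolds Cab39l and Cab39 changed by −0.62 and −0.19 (adjusted p 0.0377 and 0.0465). Wnk1, the most abundant regulator that was not called, stood at 188 ± 17.1 CPM in controls and 186 ± 10.1 CPM in knockouts (SD, n = 4 each; 95% interval of the log2 fold change −0.19 to 0.16). None of these 4 calls held in 6 of the 8 refits.

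Of 7 transcription factors and coactivators of the segment, all tested, 2 fell, with a median log2 fold change of −0.95. Esrrb, a nuclear receptor of the oestrogen-related family, went from 22.2, 10.8, 42.0 and 27.8 CPM to 2.32, 3.01, 8.65 and 2.88 CPM (log2 fold change −2.59, SE 0.51, adjusted p 0.0193). All knockouts lay below all controls. Ppargc1a, a coactivator of mitochondrial genes, changed by −0.81 (adjusted p 0.0394). Pou3f3, a POU-domain factor of the distal nephron, had a 95% interval of −0.41 to 0.22 and was not called (log2 fold change −0.09, adjusted p 0.665). With DESeq2 5 of the 7 were called lower, and without control replicates 1 or 3 or knockout replicates 1, 2 or 4 edgeR called 0.

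For uromodulin, 3 of 5 listed processing genes and relatives were tested and 1 fell. Hpn, which encodes hepsin, the protease that releases uromodulin from the membrane, was at 68.2, 31.2, 71.4 and 94.1 CPM in controls and 17.6, 13.2, 30.6 and 19.1 CPM in knockouts. All knockouts lay below all controls, control replicate 2 only just so (log2 fold change −1.72, SE 0.34, adjusted p 0.0197). Mal, a lipid-raft protein of apical transport, had a log2 fold change of −1.09 and was not called (adjusted p 0.0614). The call of Hpn was lost in the 6 refits without a called member.

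Of 14 other ligands, receptors and sheddases of the EGF family, 11 were tested, 2 fell and 1 rose (median log2 fold change −0.16). Egfr, the receptor of Egf, rose from 22.0 ± 6.91 to 38.5 ± 5.48 CPM (SD, n = 4 each; log2 fold change 0.80, adjusted p 0.0322). Its values were 20.4, 32.2, 18.0 and 17.5 CPM in controls and 32.0, 44.0, 36.0 and 41.9 CPM in knockouts, with control replicate 2 just above the lowest knockout. Erbb4 and Erbb2, which encode related receptors, changed by −0.73 and −0.32 (adjusted p 0.0322 and 0.0352). Adam10, a sheddase, was not called (0.12, adjusted p 0.335). In 6 of the 8 refits none of the list was called.

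Of 11 other prostaglandin E2 genes, all tested, 1 fell, with a median log2 fold change of −0.43. This was Ptges2, a prostaglandin E synthase (−0.78, adjusted p 0.0340), whereas the cytosolic synthase gene Ptges3 was not called (0.02, adjusted p 0.903). Of 7 other markers of the limb and the macula densa, all tested, 2 fell, with a median of −0.74. Tmem52b, a membrane protein gene, went from 65.3, 48.5, 102 and 117 CPM to 21.7, 11.6, 24.8 and 17.9 CPM (log2 fold change −2.13, SE 0.31, adjusted p 0.0109), with no overlap. Tmem72 changed by −2.03 (adjusted p 0.0420). Cdh16, the kidney-specific cadherin, was not called (−0.74, adjusted p 0.124). The prostaglandin list had 0 genes called lower in 5 of the 8 refits, and the limb list 0 to 5, with 0 without knockout replicate 4.

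The genes whose log2 CPM over the 8 libraries was most like that of Umod, among 14182 candidates, were Serpina6 (Pearson r 0.998), Aadat (0.997), Nckipsd (0.995), Mep1a (0.995) and Fxyd2 (0.995). These values are a description over 8 libraries of both genotypes. Serpina6, the gene of corticosteroid-binding globulin, was at 166, 22.9, 214 and 309 CPM in controls and at 0.253, 0, 16.2 and 0.935 CPM in knockouts. It thus followed Umod library by library. Mep1a encodes a metalloprotease of the proximal brush border, Aadat a mitochondrial aminotransferase and Fxyd2 the gamma subunit of the sodium pump.

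Among lists of markers of other cell types, all 10 proximal tubule genes fell (median log2 fold change −3.01), and their summed level was 366 to 1497 CPM in controls and 36.0 to 211 CPM in knockouts. In the refits on 7 libraries 1 to 10 of them were called, with the fewest (1) without knockout replicate 1 and likewise without knockout replicate 4. Of 7 distal convoluted tubule genes 6 were tested and 3 fell (median −1.20; sum 696 to 1060 against 593 to 750 CPM). Of 6 podocyte genes 2 fell (median −1.29; sum 389 to 585 against 282 to 351 CPM), and 1 of 7 endothelial genes (median −0.36; sum 486 to 719 against 334 to 559 CPM). No podocyte gene was called in 5 of the 8 refits and no endothelial gene in 6, while the distal convoluted tubule had 1 to 3 called. Principal cell genes had 1 of 6 called, upward (median −0.52; sum 398 to 1124 against 174 to 877 CPM). Intercalated cell genes had 0 of 6 called by edgeR, 4 at an unadjusted p under 0.05, and 4 called by DESeq2 (median −1.45; sum 31.3 to 104 against 10.5 to 54.4 CPM). None of these markers was at 0 counts in any library.

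Fibroblast genes had 1 of 7 called, upward, and 6 without control replicate 2 (median 0.55; sum 2692 to 3751 against 3058 to 5228 CPM). For leukocytes 2 of 6 tested genes rose, and none was called without knockout replicate 4 (median 0.37; sum 93.4 to 114 against 113 to 144 CPM), and Cd3e was at 0 in 4 of the 8 libraries. Nephron progenitor genes summed to 383 to 592 CPM in controls and 404 to 597 CPM in knockouts, so transcripts of immature kidney were present in every library, and 2 of the 6 fell (median 0.23; 0 to 2 called lower in the refits). Adrenal genes summed to 18.6 to 147 CPM in controls and 15.0 to 2633 CPM in knockouts, with mean log2 CPM of 6.86 in knockout replicate 1, 4.44 in knockout replicate 4 and 2.97 in control replicate 4, against 0.21 or less elsewhere. With that level as a covariate, edgeR called 1 member, Umod (adjusted p 0.0387), and 3.79% of all tested genes lower. Slc12a1 was at 2.81 and 233 CPM in knockout replicates 2 and 3, which had little adrenal RNA. It was at 23.8 and 37.5 CPM in knockout replicates 1 and 4. Beyond the fit with this covariate, the part of adrenal RNA in the members' values was not tested. The part of the other cell types was not tested.

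**Figure D4:**
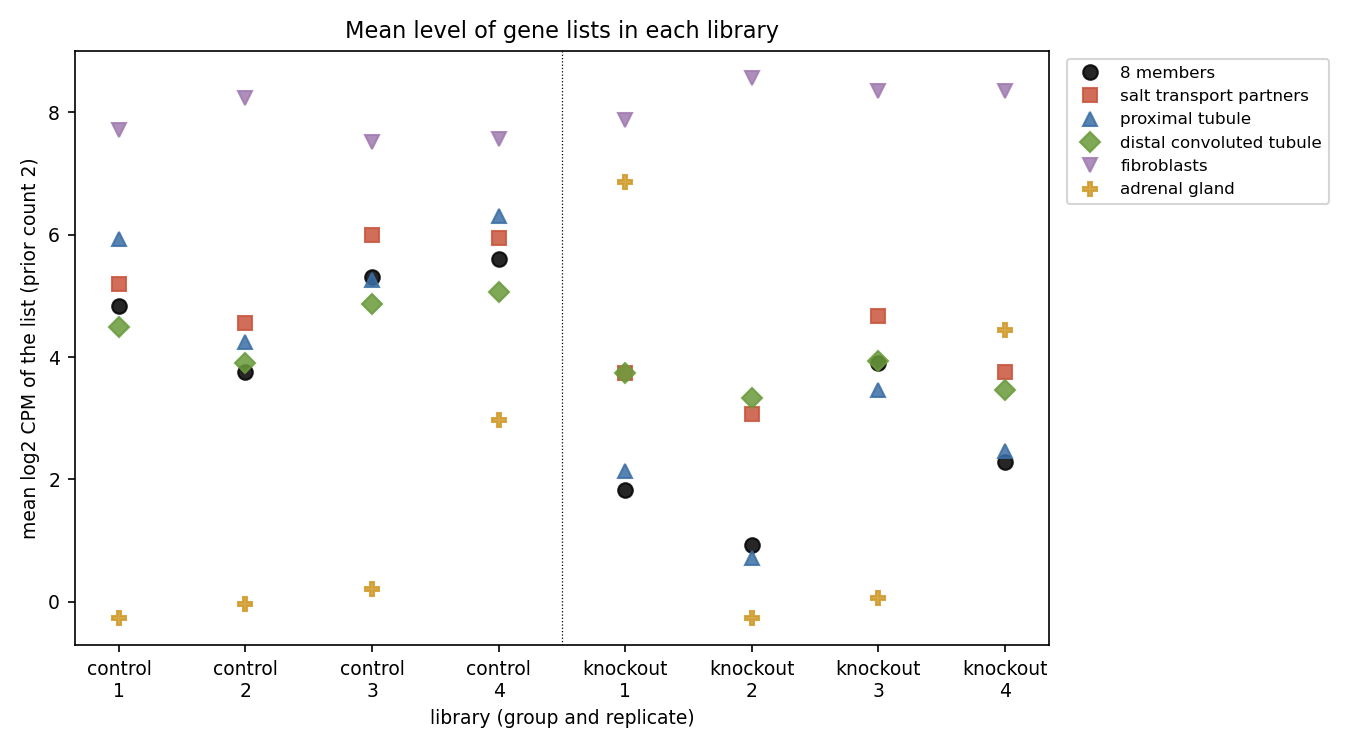
Mean log2 CPM of 6 gene lists in each library, controls on the left of the dotted line and knockouts on the right. The members (black circles) stood at 4.84, 3.76, 5.30 and 5.61 in controls and at 1.83, 0.92, 3.90 and 2.28 in knockouts. Proximal tubule genes (blue triangles) were likewise lowest in knockout replicate 2, at 0.72, and adrenal genes (yellow plus signs) were highest in knockout replicate 1, at 6.86.

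The members' mean ordered the libraries nearly as the first principal component of all tested genes did, from control replicate 4 at one end to knockout replicate 2 at the other. That component held 62.7% of the variance. Control replicate 2 and knockout replicate 3 were neighbours in both orders, in exchanged places.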

How the data were processed

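Poly(A) RNA libraries of 8 mouse kidneys were analysed, grouped by genotype in the labels. Per gene, the authors deposited raw read counts, whole and not normalized, as 1 table of the series and 1 file per library, which differed in 0 cells. The library files, per the file headers, also give exon coordinates and gene length (another deposited value, in bases). Trimmomatic 0.36, STAR 2.5.2b, featureCounts of Subread 1.5.2, DESeq2 and build GRCm38 are named in the submitters' processing notes. Strand and multi-mapping settings are not given in the sources used here. Symbols from GENCODE M21 matched 48970 of 49315 IDs. Noncoding neighbours overlap 4 members (Umod, Slc12a1, Egf and Casr) with at most 55 counts over 8 libraries each, and Enox1 with at most 170.

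Counts were scaled by TMM, filtered with filterByExpr (18485 genes kept) and tested in edgeR 4.0.16 (R 4.3.3) by quasi-likelihood, without covariate and with Benjamini-Hochberg adjustment over all tested genes; an adjusted p under 0.05 is a call, and "fell" and "rose" denote calls. SEs came from the fold change and F statistic. DESeq2 1.42.0 and limma 3.58.1 (voom) were alternatives, beside those in the closing section. The procedure was tested on simulated data with a fixed dispersion and no differences between libraries beyond depth. Such data are unlike these libraries, so that test does not show how stable the calls are here. Pairs of libraries differed beyond sampling noise (chi-square per degree of freedom 12.0 to 103 over 28 pairs). Beside the members and Kdm1a, the text names from each pathway list up to 4 called genes with the smallest adjusted p and the most abundant uncalled gene, and the 5 genes most like Umod (mean of at least 1 CPM, no numbered genes or pseudogenes). Members and lists were chosen with earlier results of these data known. The comparison by Y-linked transcripts was chosen after the data were seen. Some genes of these lists and 1 motif are not reported here and were left out of the counts.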

Additional observations from a re-analysis of the deposited data

Results flagged for a closer look

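In a group of 4 libraries, a library was marked when its gap to the nearest other exceeded the 95% critical value of Dixon's ratio. The rule was applied to 20 groups (Kdm1a, the 8 members and the Umod to Slc12a1 ratio in each genotype). Genes were taken in CPM without a log, and only the ratio on the log2 scale. For normally distributed values chance marks about 1 in 20. CPM that spread over more than an order of magnitude need not follow that rate. Whether the same libraries would be marked on a log scale was not tested. Of the 6 marks 4 were in knockout replicate 3, so they share 1 library and are not independent. Umod in that library was at 12.8 CPM, the next knockout being at 1.58 CPM. Slc12a1 was at 233 CPM, next to 37.5 CPM. Kcnj1 was at 22.5 CPM, next to 4.39 CPM, and Bsnd at 13.2 CPM, next to 3.67 CPM. The other 2 marks were in control replicate 2, which had Enox1 at 20.3 CPM, above the next control at 13.8 CPM, and a log2 ratio of Umod to Slc12a1 of −2.43, below the next at −1.17.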

How the results depend on the processing

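The counts of calls moved with the method and with single libraries. Over all genes 2751 were called; DESeq2 called 4506, limma-voom with sample weights 8302, the fit with the adrenal covariate 1351 and the fit without both control replicate 2 and knockout replicate 3 7903. Leaving out 1 library gave 153 to 7084. The 4 members called became 7 with limma-voom, 2 with the Y-linked covariate and 1 with the adrenal covariate. They became 7 without the 2 libraries together and 0 to 6 with 1 library left out. Of all tested genes those fits called 22.9%, 5.62%, 3.79%, 22.2% and 0.230% to 19.0% lower, in that order, against 8.27% in the main fit. DESeq2 size factors, both other filters on low counts and the library files gave 4 members, with 4.51% to 9.41% of genes lower. The count of members with every knockout below every control, 2 over all libraries, was 7 within the libraries with and within those without Y-linked transcripts (16.0% of tested genes). That rise follows from the split itself, which was chosen after the data were seen and puts control replicate 2 and knockout replicate 3, the only overlapping pair, in different kinds. Over all 18 alternatives 7 members kept a negative fold change. Enox1 turned sign in 3 (−0.030, −0.032 and −0.0054, without control replicates 1, 3 and 4), its range with 1 library left out being −0.032 to 0.22. Kdm1a ranged from −0.29 to −0.24 with 1 library left out, and its adjusted p was above 0.05 in 5 of those 8 fits.

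Replicate numbers are shared by the genotypes in the labels, which do not say that they pair kidneys. For that reason the numbers were not taken as pairs. Deviations of same-numbered libraries correlated at −0.11, 0.33, 0.23 and −0.06 for replicates 1 to 4. Differently numbered libraries were not compared, so these values cannot settle whether the kidneys were paired. With the replicate block edgeR called 3229 genes and 6 members, Slc12a1 (adjusted p 0.0158) and Casr (0.00973) being added. That fit called 9.46% of all tested genes lower. For the Umod to Slc12a1 ratio, permutation within pairs left the difference at −3.20 with an exact p of 0.125, the smallest that 4 pairs allow. Leaving out 1 library gave −3.54 to −2.96. Without the 2 libraries together it was −3.69 with an exact p of 0.100, the smallest that 3 against 3 allow. The lowest values, 1 count of Umod and 2 of Casr in knockout replicate 2, are limited by counting.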

Other observations

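Genes of the distal convoluted tubule, the segment that follows the limb, divided. Slc12a3, the thiazide-sensitive cotransporter and a paralog of Slc12a1, was at 41.7, 18.9, 64.5 and 91.3 CPM in controls and at 6.76, 3.06, 14.3 and 6.73 CPM in knockouts, with no overlap (log2 fold change −2.80, adjusted p 0.0190). Trpv5, a calcium channel, changed by −2.66 (adjusted p 0.0172) and S100g, a calcium-binding protein, by −2.44 (adjusted p 0.0101). Trpm6, a magnesium channel whose activity EGF is known to raise, was not called (0.22, adjusted p 0.235), at 6.72 to 8.54 CPM in controls and 8.58 to 10.2 CPM in knockouts. Calb1, another calcium-binding protein of this segment, was not called either (0.25, adjusted p 0.168).

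Among nephron progenitor genes, Cited1 and Meox1 changed by −1.64 and −1.45 (adjusted p 0.0225 and 0.0132), whereas Six2 was at 96.9 to 162 CPM in controls and 135 to 219 CPM in knockouts and was not called (0.47, adjusted p 0.127).

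Control replicate 2 and knockout replicate 3, close on the first principal component of all tested genes, differed in the balance of the members. Knockout replicate 3 had more Slc12a1 (233 against 149 CPM), Kcnj1 (22.5 against 16.7), Bsnd (13.2 against 9.55), Ptger3 (12.0 against 9.13) and Casr (3.43 against 1.72), and less Umod (12.8 against 27.6) and Egf (3.88 against 4.82). These are 2 single libraries, and no test was made between them.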
